A study of Mus musculus with 4 samples.

Results

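Cytochrome P450 enzymes of the Cyp4 family, which put a hydroxyl group on the far (omega) end of fatty acids and eicosanoids, and the steroid hydroxylase Cyp17a1 were followed in mouse liver after knockdown of Cux2. The set has 9 genes, 4 of the Cyp4a subfamily (Cyp4a10, Cyp4a12a, Cyp4a12b and Cyp4a14), 3 of the Cyp4f subfamily (Cyp4f13, Cyp4f14 and Cyp4f15), Cyp4v3 and Cyp17a1. They were found by the RefSeq accession of each probe and its symbol in a table of GRCm38.p6 genes, which gave 9 genes with 10 probes, out of 33269 names with 41174 probes on the array. Cyp4a10 had 2 probes and the other 8 genes had 1 each.

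Cux2 is a homeobox transcription factor found mainly in female liver in mice, and it was depleted there with small interfering RNA (siRNA) to learn which genes respond. All livers came from 8-week-old female mice of the outbred CD-1 stock, and each of 4 two-colour arrays set a pool of livers given Cux2 siRNA against a pool given a non-specific siRNA. Cux2 siRNA pools taken at day 5 held 3 mice (replicate 1) and 2 mice (replicate 2), and both pools taken at day 8 held 2 mice. Control livers came from 13 mice in 2 pools of 6 or 7 by the series description, although each sample's description counts 6. Neither the day on which control mice were killed nor the control pool on a given array is stated. In replicate 1 of both days the Cux2 siRNA pool carried the dye Alexa 647, and in replicate 2 it carried Alexa 555. Replicate number and dye orientation therefore cannot be told apart, and each may also go with a control pool.

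The omega end of a fatty acid is the starting point for conversion to a dicarboxylic acid, a side route that takes up fatty acids when mitochondrial oxidation is saturated. In rodent liver the Cyp4a genes, Cyp4a10 and Cyp4a14 above all, are textbook targets of the fatty acid sensor PPAR alpha, while Cyp4a12a is expressed mainly in males and makes an arachidonic acid metabolite that constricts vessels. Cyp4f enzymes hydroxylate leukotrienes and other long-chain substrates, Cyp4v3 is the mouse counterpart of a human gene mutated in a crystalline retinal dystrophy, and Cyp17a1 adds a hydroxyl group to pregnenolone and progesterone on the way to androgens.

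Every ratio is given on the log2 scale as Cux2 siRNA over non-specific siRNA, from a single limma model of all 4 arrays, and a gene passed at an adjusted p under 0.05 (Benjamini-Hochberg over the 25113 genes tested). Alternative models took replicate number, which is also the dye orientation, as a block, or started from the scanner's processed signals, the authors' value table or signals with no background subtracted. Since animals were pooled, a p-value reflects only how pools and dyes vary, and because control pools recur, the 4 ratios are not fully independent. In whole liver RNA, fewer cells of a type and less RNA per cell cannot be told apart. Cux2 itself stood at 28.6% of control at day 5 and 45.6% at day 8. Per array and channel, 71.5% to 74.9% of probes exceeded background clearly, and all 10 probes of the 9 genes did so in 8 of 8 readings. Beside the marker counts that follow, 14.8% of all genes rose and 16.3% fell over both days. With any 1 array omitted fewer of all genes passed over both days, so a lower marker count in such a fit is not particular to the markers. Summed macrophage marker intensity was 51990 to 82260 in Cux2 siRNA pools and 101700 to 109200 in control pools, and 12 of 15 macrophage markers fell over both days while 0 rose. With the processed signals, the value table or no background subtraction 7 fell. With each array centred on its median 0 fell (median ratio -0.69), a setting in which 1.07% of all genes passed. Neutrophil markers summed to 9529 to 11670 in Cux2 siRNA pools and 18050 to 23460 in control pools, with 6 of 10 falling and 0 rising. The falls were uneven, at -2.41 for S100a8, -2.50 for S100a9 and -0.31 for Csf3r. Mpo (-0.56), Cxcr2 (-0.62) and Mmp8 (-0.34) were dim, with mean log2 intensities of 6.68, 6.59 and 6.25. Camp (0.02), Ngp (-0.12) and Ltf (-0.10), about as dim, did not pass. The 10 include a Cyp4 gene outside the set of 9, which did not pass (0.29, adjusted p = 0.117). Neutrophil falls numbered 4 without day 5 replicate 1 or day 8 replicate 2, and 2 with each array centred on its median. Of 13 lymphocyte markers 1 rose and 5 fell (summed intensity 2636 to 3159 in Cux2 siRNA pools and 3895 to 4677 in control pools), and of 16 endothelial and stellate markers 3 rose and 7 fell (98280 to 114600 against 115600 to 122300). The lymphocyte rise was lost without any 1 array, and the 7 endothelial and stellate falls were 4 without replicate 2 of either day and 4 with the processed signals. The 13 pancreatic markers, of which 6 fell and 0 rose, were lower in the Cux2 siRNA pool on 3 of 4 arrays, where they summed to 12790, 13370 and 16090 against 34730, 82220 and 90850 in control pools, and on day 8 replicate 1 they summed to 52250 against 35220. Their 6 falls became 1 or 0 with replicate 1 or 2 of day 5 omitted and 13 or 10 with replicate 1 or 2 of day 8 omitted. They numbered 12 with the block and 0 with the processed signals, the value table or no background subtraction. Of 11 hepatocyte markers tested 1 rose and 1 fell (3 and 2 with the block, and 0 to 1 each without 1 array), and their summed intensity overlapped between Cux2 siRNA pools (1472000 to 2019000) and control pools (1383000 to 2265000).

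Over both days together, Cyp4a10 and Cyp4a12b were higher and Cyp4v3 was lower after Cux2 siRNA, and the other 6 genes did not pass. At day 5, 0 of 9 rose (7.36% of all genes tested did) and 1 fell, Cyp4v3 (9.41% of all genes), which made 1 of 9 called beside 16.8% of all genes. At day 8, 1 rose, Cyp4a12b (6.26% of all genes), and 1 fell, Cyp4v3 (8.02%), which made 2 of 9 beside 14.3%. Over both days 3 of 9 passed, beside 31.0% of all genes (14.8% rose and 16.3% fell), a share near the background. With each array centred on its median in place of loess, 0 of 9 passed on either day (0.0199% and 0.0119% of all genes) and 1, Cyp4a10, over both days (1.07%). With the block, 5 of 9 passed at day 5 (32.8% of all genes), 3 at day 8 (29.7%) and 4 over both days (44.8%). The median ratio of the 9 genes was 0.12 at day 5, 0.13 at day 8 and 0.13 over both days, where the median of all genes was 0.00 each time. Cyp4a10, Cyp4a12b, Cyp4f13 and Cyp4f14 lay above 0 on all 4 arrays, as did 26.4% of all genes, and Cyp4v3 lay below 0 on all 4, as did 26.0%.

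**Figure D1:**
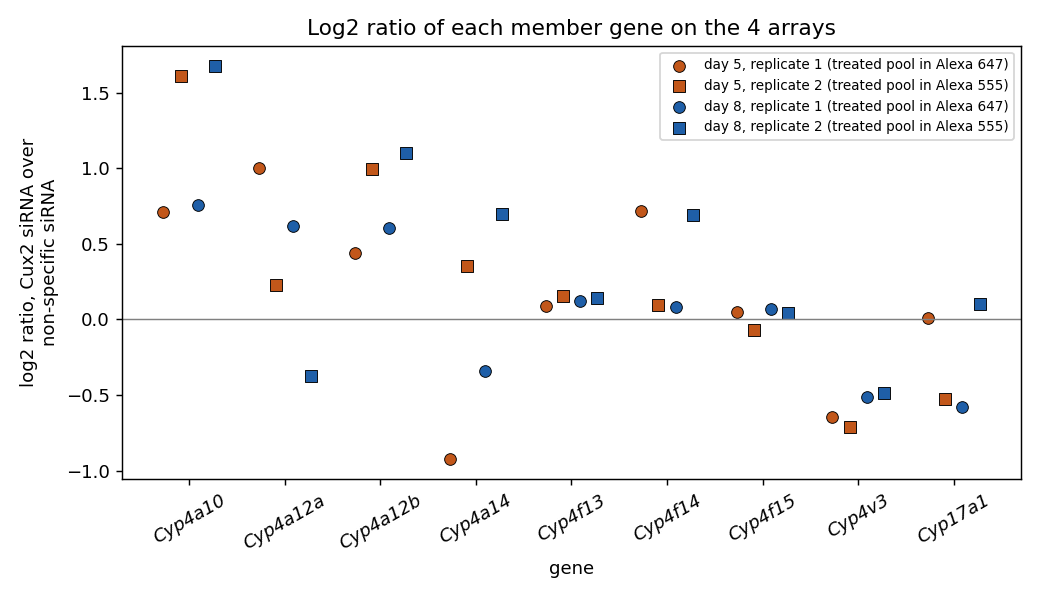
Log2 ratio of each of the 9 genes (Cux2 siRNA over non-specific siRNA, vertical axis) on the 4 arrays. Circles are replicate 1 and squares replicate 2, orange is day 5 and blue day 8. The 4 points of Cyp4v3 lie together between -0.71 and -0.49, while those of Cyp4a14 run from -0.92 to 0.69.

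Promoter sequence (RefSeq, 250 bases before to 50 after the start site) was at hand for 4 of the 9 genes, Cyp4f13, Cyp4f14, Cyp4f15 and Cyp4v3. The promoter of Cyp4v3 is shown because this gene fell on every array, and that of Cyp4f15 because its ratio stayed near 0 on every array. They were searched on both strands for ATCAAT and ATCGAT, core letters bound by Cut homeodomain proteins such as Cux2, for TTCNNNGAA, bound by STAT factors, and for AGGTCA and AGGTCANAGGTCA, the single site and the direct repeat bound by PPAR and its partner. AGGTCANAGGTCA contains AGGTCA, so a match to the longer motif is also one to the shorter. Capitals mark a match, and each sequence reads 5′ to 3′ along the gene's strand. Cyp4v3 is at chr8:45333114-45333413 (GRCm38.p6, minus strand) and Cyp4f15 at chr17:32685409-32685708 (GRCm38.p6, plus strand).
Cyp4v3 promoter: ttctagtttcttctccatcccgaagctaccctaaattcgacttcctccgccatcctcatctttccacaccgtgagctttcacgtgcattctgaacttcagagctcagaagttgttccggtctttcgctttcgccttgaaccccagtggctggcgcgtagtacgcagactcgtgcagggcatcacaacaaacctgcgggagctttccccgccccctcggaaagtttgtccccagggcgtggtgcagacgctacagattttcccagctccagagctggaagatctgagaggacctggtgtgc
Cyp4f15 promoter: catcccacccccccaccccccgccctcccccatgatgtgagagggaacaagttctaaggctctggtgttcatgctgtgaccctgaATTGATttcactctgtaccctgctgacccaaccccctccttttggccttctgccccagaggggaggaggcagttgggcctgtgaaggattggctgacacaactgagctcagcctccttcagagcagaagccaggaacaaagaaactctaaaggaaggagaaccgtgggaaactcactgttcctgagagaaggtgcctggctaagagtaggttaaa
The Cyp4v3 window held none of the 5 motifs. The Cyp4f15 window held ATCAAT once, on the opposite strand and so read as ATTGAT, at base -165 from the start site. Cyp4f13 had TTCNNNGAA once, at base -22, and of the 4 start sites listed for Cyp4f14 the last had ATCAAT once, at base -21 from that site. Among 32851 mouse promoters of the same 300-base length, 7.54% held ATCAAT, 0.925% ATCGAT, 8.3% TTCNNNGAA, 16.3% AGGTCA and 0.0396% AGGTCANAGGTCA. These matches describe letters in the window and were not tested for binding.

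The 4 Cyp4a genes lie near each other on chromosome 4 (GRCm38.p6). They run from Cyp4a12a at chr4:115299046-115332815 and Cyp4a12b at chr4:115411624-115439034 to Cyp4a14 at chr4:115486200-115496158 and Cyp4a10 at chr4:115518287-115533649. Their ratios ran in different ways. Cyp4a10 rose most, Cyp4a12b rose less, and Cyp4a12a and Cyp4a14 had ratios of both signs.

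Cyp4a10, a fatty acid omega-hydroxylase that PPAR alpha agonists induce in mouse liver, had normalized intensities of 32180 and 33550 in the Cux2 siRNA pools of day 5 (replicates 1 and 2), against 19690 and 11000 in the control pools of the same arrays. At day 8 it had 34620 and 38180 in Cux2 siRNA pools, against 20510 and 11930 in control pools. Every Cux2 siRNA pool was above every control pool, and the control pools themselves fell into a higher pair in replicate 1 and a lower pair in replicate 2. This split of the control pools appeared after normalization. At day 5 the spot signals before it, read in opposite dyes, were 15550.5 and 15886 in control pools and 41158.6 and 25920 in Cux2 siRNA pools. How many of all genes separate in this way was not counted, and by the series description the control readings come from 2 pools. The log2 ratios were 0.71 and 1.61 at day 5 and 0.76 and 1.68 at day 8. Over both days Cyp4a10 rose by 1.19 (SE 0.21, adjusted p = 0.0168, limma, n = 4 arrays), 2.28-fold, with a 95% interval of 0.63 to 1.75 on the log2 scale. By size of rise it ranked 95 among the 25113 genes. Single days missed the threshold, with 1.16 at day 5 (SE 0.30, adjusted p = 0.0656) and 1.22 at day 8 (SE 0.30, adjusted p = 0.0648). Both days passed once replicate number was a block (adjusted p = 0.000901 at day 5 and 0.000923 at day 8). The second probe of Cyp4a10, read at lower intensity, gave 0.65 and 1.62 at day 5 and 0.87 and 1.74 at day 8. The call over both days was lost without background subtraction (1.22, adjusted p = 0.0573) and with replicate 2 of day 5 omitted (0.96, adjusted p = 0.0511).

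Cyp4a12b, a close copy of Cyp4a12a, had 3663 and 3067 in the Cux2 siRNA pools of day 5, against 2708 and 1537 in control pools. In the day 8 arrays it had 4173 and 3447 in Cux2 siRNA pools, against 2752 and 1611 in control pools. The groups did not overlap, and as with Cyp4a10 the control pools of replicate 2 were the lower ones. The limit given for the separation of Cyp4a10 holds here too. The ratios were 0.44 and 1.00 at day 5 and 0.60 and 1.1 at day 8. Cyp4a12b rose by 0.85 at day 8 (SE 0.18, adjusted p = 0.0467, 1.80-fold) and by 0.78 over both days (SE 0.13, adjusted p = 0.0135, 1.72-fold), and stood at 0.72 at day 5 (SE 0.18, adjusted p = 0.0628, or 0.00252 with the block). The day 8 call was lost with the scanner's processed signals (0.91, adjusted p = 0.11), without background subtraction (0.78, adjusted p = 0.101), with no filter on dim probes (adjusted p = 0.0515) and with either array of day 8 left out (adjusted p = 0.0816 without replicate 1 and 0.266 without replicate 2). The call over both days held in each of these settings.

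Cyp4a12a, the male-biased arachidonic acid hydroxylase, had 1386 and 1273 in the Cux2 siRNA pools of day 5, against 693.2 and 1088 in control pools. At day 8 it had 1009 and 847.5 in Cux2 siRNA pools, against 658.8 and 1101 in control pools. The groups overlapped, and here the control pools of replicate 1 were the lower ones. Its ratios of 1.00 and 0.23 at day 5 and 0.62 and -0.38 at day 8 averaged 0.37 over both days (SE 0.21, adjusted p = 0.256). With the block it passed over both days (SE 0.05, adjusted p = 0.00453) and at day 5 (0.61, adjusted p = 0.00498), but not at day 8 (0.12, adjusted p = 0.261). Without the block the 95% interval of -0.18 to 0.91 spans from a small fall to a rise near that of Cyp4a12b.

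Cyp4a14, the other strongly PPAR alpha-inducible member, had 7828 and 7332 in the Cux2 siRNA pools of day 5, against 14840 and 5729 in control pools. The day 8 arrays gave 12750 and 9836 in Cux2 siRNA pools, against 16180 and 6077 in control pools. Both replicate 1 arrays were below 0 (-0.92 and -0.34) and both replicate 2 arrays above 0 (0.36 and 0.69), and the control pools spanned 2.82-fold, wider than the Cux2 siRNA pools. Over both days Cyp4a14 averaged -0.05 (SE 0.27, adjusted p = 0.907), with an interval of -0.76 to 0.65. With the block its day 5 mean of -0.28 passed as a fall (SE 0.07, adjusted p = 0.0385), while day 8 (0.18, adjusted p = 0.133) and both days (adjusted p = 0.434) did not.

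**Figure D2:**
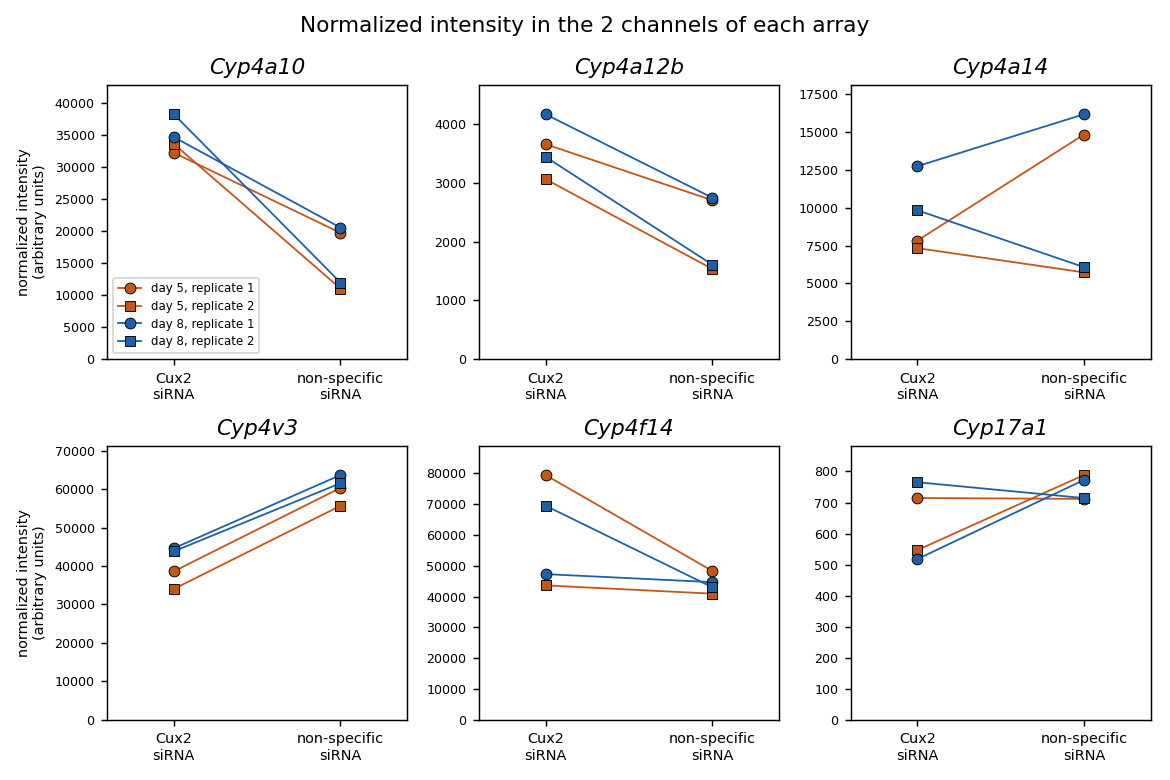
Normalized intensity (arbitrary units, axes from 0) of 6 of the genes in the Cux2 siRNA pool (left) and the non-specific siRNA pool (right) of each array, joined by a line. Colours and shapes stand for day and replicate as named in the key. For Cyp4a10 the Cux2 siRNA pools lie between 32180 and 38180 and the control pools between 11000 and 20510, for Cyp4a14 the lines cross, and for Cyp4v3 the Cux2 siRNA pools lie between 34040 and 44630, all under the control pools at 55670 to 63670.

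Of 12 other Cyp4 genes listed, 5 were on the array and tested, and 1 of them, Cyp4a31, passed over both days. Cyp4a31 is a further gene of the Cyp4a subfamily, and its ratios of 0.63 and 1.93 at day 5 and 0.73 and 2.03 at day 8 resemble those of Cyp4a10 array by array. It rose by 1.33 over both days (SE 0.30, adjusted p = 0.031), but it passed neither at day 5 (adjusted p = 0.112) nor at day 8 (adjusted p = 0.103). The call needed both replicate 2 arrays, since it was lost when that of day 5 (1.01, adjusted p = 0.0875) or that of day 8 (1.01, adjusted p = 0.0839) was omitted. It also lost it with the scanner's processed signals (adjusted p = 0.0652), with the authors' value table (adjusted p = 0.0657) and without background subtraction (adjusted p = 0.0871). Cyp4a genes are similar in sequence and probe sequences were not used here, so signal of one gene and cross-hybridisation from a neighbour cannot be told apart.

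The 3 Cyp4f genes lie close together on chromosome 17 (GRCm38.p6), with Cyp4f15 at chr17:32685631-32703352, Cyp4f14 at chr17:32903357-32917376 and Cyp4f13 at chr17:32924688-32947415. None of the 3 passed at day 5, at day 8 or over both days. Cyp4f14, which hydroxylates leukotriene B4, had 79430 and 43620 in the Cux2 siRNA pools of day 5, against 48330 and 40930 in control pools. At day 8 it had 47280 and 69470 in Cux2 siRNA pools, against 44670 and 43040 in control pools. Pools of Cux2 siRNA on day 5 replicate 1 and day 8 replicate 2 were high, while the other Cux2 siRNA pools lay inside the range of the control pools. Its ratios of 0.72, 0.09, 0.08 and 0.69 averaged 0.40 (SE 0.15, adjusted p = 0.111), with a 95% interval of 0.01 to 0.78.

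Cyp4f13, another mouse Cyp4f hydroxylase, had 2585 to 2778 in Cux2 siRNA pools and 2320 to 2595 in control pools, and its 4 ratios lay between 0.09 and 0.16. The mean of 0.13 over both days did not pass (SE 0.05, adjusted p = 0.108), although it did without background subtraction (0.13, adjusted p = 0.0229). Cyp4f15, described above with its promoter, had 9365 and 9593 in the Cux2 siRNA pools of day 5, against 9061 and 10080 in control pools, and 10120 and 4753 in those of day 8, against 9636 and 4623. Both channels of day 8 replicate 2 read low together, so the 4 ratios of 0.05, -0.07, 0.07 and 0.04 stayed close to 0. Over both days Cyp4f15 averaged 0.02 (SE 0.05, adjusted p = 0.783), with an interval of -0.11 to 0.15.

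With loess, Cyp4v3 at chr8:45305801-45333163 (GRCm38.p6) had the most repeatable ratio of the genes that passed. With each array centred on its median instead, it was the least repeatable of them. Its SE at day 5 was then 0.40, against 0.16 for Cyp4a10 and 0.16 for Cyp4a12b. Cyp4v3 had 38630 and 34040 in the Cux2 siRNA pools of day 5, against 60320 and 55670 in control pools. Day 8 gave 44630 and 43830 in Cux2 siRNA pools, against 63670 and 61540 in control pools. No Cux2 siRNA pool reached a control pool, and the control pools spanned 1.14-fold. As for Cyp4a10, the share of all genes that separate in this way was not counted. The ratios of -0.64, -0.71, -0.51 and -0.49 gave a fall by 0.68 at day 5 (SE 0.07, adjusted p = 0.00887) to 62.6% of control, and a fall by 0.50 at day 8 (SE 0.07, adjusted p = 0.0171) to 70.7%. Over both days Cyp4v3 fell by 0.59 (SE 0.05, adjusted p = 0.00257), with an interval of -0.71 to -0.47. With either array of a day omitted that day's call was lost, although the ratio moved little. Fewer of all genes passed in these fits as well, so the loss is not particular to Cyp4v3. At day 5 the other array alone gave -0.71 with replicate 1 omitted and -0.64 with replicate 2 omitted. At day 8 these values were -0.49 and -0.51. The day 8 call was also lost with the scanner's processed signals (-0.52, adjusted p = 0.0621) and the authors' value table (adjusted p = 0.0616). The call over both days held in each of these settings, but not with median centring (adjusted p = 0.46). Macrophage markers and some neutrophil markers fell over the same arrays, with the values given above, and their part in the fall of Cyp4v3 was not tested.

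Cyp17a1, the steroid hydroxylase and lyase at chr19:46667165-46673000 (GRCm38.p6), had 714.6 and 546.7 in the Cux2 siRNA pools of day 5, against 711.7 and 788.5 in control pools. Day 8 gave 517.7 and 765.4 in Cux2 siRNA pools, against 772.6 and 714.4 in control pools. The control pools were close together, whereas the Cux2 siRNA pools split into a lower pair (day 5 replicate 2 and day 8 replicate 1) and a pair inside the control range. Its ratios of 0.01, -0.53, -0.58 and 0.10 averaged -0.25 over both days (SE 0.15, adjusted p = 0.268), with an interval of -0.63 to 0.13.

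**Figure D3:**
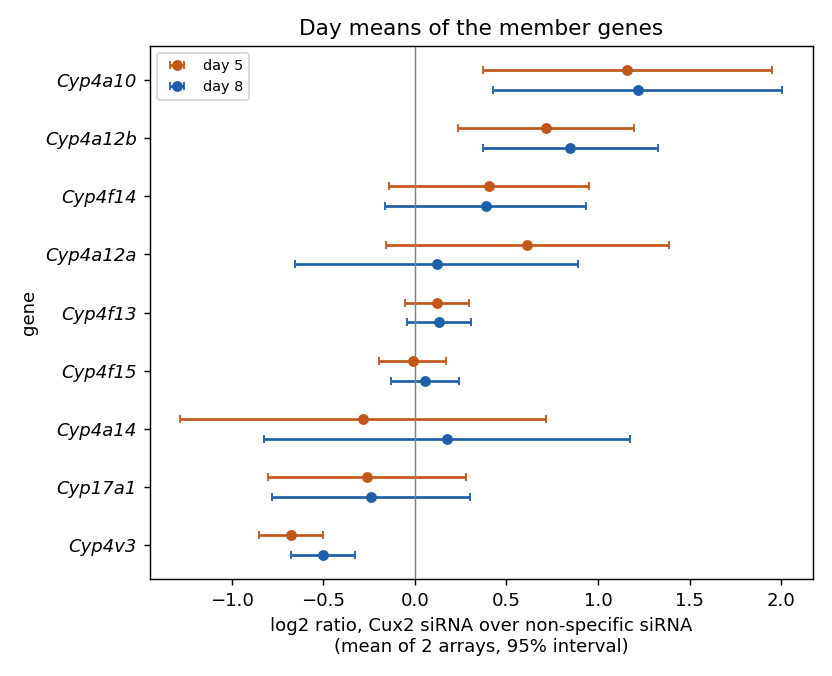
Mean log2 ratio (Cux2 siRNA over non-specific siRNA, horizontal axis) of each gene at day 5 (orange) and day 8 (blue), with 95% intervals from the limma fit, 2 arrays per day. The intervals of Cyp4a10 and Cyp4a12b lie above 0 and those of Cyp4v3 below 0 on both days, while those of the other 6 genes cross 0 on each day.

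The mean ratio of Cux2 itself was -1.81 at day 5 and -1.13 at day 8. This difference of 0.67 (SE 0.12, unadjusted p = 0.00311, limma) did not pass after adjustment. Whether the 9 genes differed between days was tested in the same way. The estimate of day 8 minus day 5 ran from -0.49 to 0.46 over the 9 genes, and 0 of 9 passed in limma, as did 0% of all genes (619 of 25113 had an unadjusted p under 0.05). For Cyp4v3 the interval of this difference was -0.07 to 0.42, and for Cyp4a10 it was -1.06 to 1.17. Between arrays of the same replicate number Cyp4a10 differed by 0.05 in replicate 1 and 0.07 in replicate 2, and with the block its interval was -0.16 to 0.27. The same differences were -0.38 and -0.60 for Cyp4a12a (block interval -0.75 to -0.24, adjusted p = 0.573) and 0.58 and 0.34 for Cyp4a14 (0.20 to 0.72, adjusted p = 0.613). With the block 0 of 9 genes and 0 of all genes passed this test, and 1682 of all genes had an unadjusted p under 0.05.

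Replicate arrays of a day differed more for 6 of the 9 genes than for most genes on the array. The log2 ratio of replicate 1 minus that of replicate 2 had its 5th and 95th percentile over all genes at -0.379 and 0.434 at day 5 and at -0.407 and 0.434 at day 8. Among the 2534 genes with a mean log2 intensity of at least 13 these limits were wider, at -0.452 and 0.709 at day 5 and at -0.443 and 0.799 at day 8. Of the bright genes among the 6, Cyp4a10 and Cyp4a14 lay outside the wider limits on both days, and Cyp4f14 lay inside them at day 5. Cyp4a14 had gaps of -1.28 and -1.04, Cyp4a10 of -0.90 and -0.92, and Cyp4a12b of -0.56 and -0.50 at days 5 and 8. Cyp4a12a went the other way on both days, at 0.77 and 0.99. For Cyp4a10, Cyp4a12b and Cyp4a14 the normalized intensities of control pools differed between replicates more than those of Cux2 siRNA pools. Which genes had wide gaps depended on the normalization. With each array centred on its median, the day 5 SE fell for Cyp4a10 (0.30 to 0.16), Cyp4a14 (0.38 to 0.20) and Cyp4a12b (0.18 to 0.16). It rose for the other genes, among them Cyp4v3 (0.07 to 0.40), Cyp4f15 (0.07 to 0.31) and Cyp4f13 (0.07 to 0.24). Cyp4f14 (0.62 and -0.61) and Cyp17a1 (0.53 and -0.68) changed the sign of the gap between days, and in both it was the Cux2 siRNA pools that differed. Cyp4f13, Cyp4f15 and Cyp4v3 had gaps no larger than 0.12 in size. The median ratio of the 11 hepatocyte markers also followed the replicate number, at 0.25 and -0.38 at day 5 and 0.42 and -0.42 at day 8, the sign opposite to the gap of Cyp4a10, Cyp4a12b and Cyp4a14. Whether dye, control pool or another feature of a replicate goes with these gaps cannot be told apart.

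**Figure D4:**
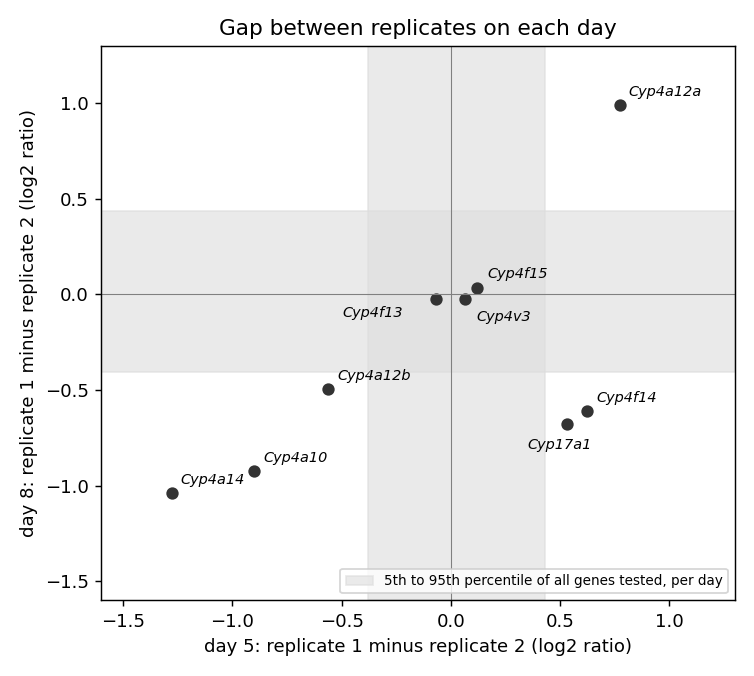
Log2 ratio of replicate 1 minus that of replicate 2 at day 5 (horizontal axis) and day 8 (vertical axis) for each gene. Grey bands span the 5th to 95th percentile of all 25113 genes on each day. Cyp4a10, Cyp4a12b and Cyp4a14 lie at lower left, Cyp4a12a at upper right, Cyp4f14 and Cyp17a1 at lower right, and Cyp4f13, Cyp4f15 and Cyp4v3 inside both bands.

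By Euclidean distance over the 4 ratios, the named genes nearest to Cyp4a10 were Iqcg, a ciliary protein (distance 0.282), Tuba1c, an alpha-tubulin (0.309), and Smim3, a small membrane protein (0.436), and 6 genes lay within 0.5. Tuba1c had ratios of 0.94, 1.52, 0.91 and 1.60 and rose by 1.24 over both days (SE 0.15, adjusted p = 0.00627). For Cyp4f14 the nearest were Ankrd6 (0.239), the nuclear receptor corepressor Nrip1 (0.273) and Spa17 (0.279), with 162 genes within 0.5. For Cyp17a1 they were Sc5d, an enzyme of cholesterol synthesis (0.26), Tppp3 (0.28) and Ppic (0.306), with 196 genes within 0.5. The distance was not scaled and the median ratio of all genes was near 0, so these counts depend on how far a gene lies from 0. They do not compare how alike the genes behave.

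The receptor that drives Cyp4a genes did not pass. Ppara had ratios of -0.05, 0.14, 0.18 and 0.17 and averaged 0.11 over both days (SE 0.06, adjusted p = 0.205). Of 35 genes of PPAR alpha signalling and fatty acid oxidation, 7 rose, 6 fell and 22 did not pass over both days, with a median ratio of 0.11. Among all genes 14.8% rose and 16.3% fell over both days, and with the block 44.8% passed in either direction. With the block 14 rose and 10 fell. Leaving out 1 array gave 4 to 6 rises, the 4 without day 5 replicate 2, and 3 to 5 falls, the 3 without day 5 replicate 1. Among those that passed, the largest rises were in Acot1, which splits long-chain acyl-CoA (2.19, SE 0.08, adjusted p = 0.000801), and Pdk4, the kinase that shuts off pyruvate dehydrogenase (0.89, SE 0.14, adjusted p = 0.0127). Among those that passed, the largest falls were in Abcd2, a peroxisomal fatty acid importer (-0.80, SE 0.14, adjusted p = 0.0156), and Ppargc1a, a coactivator of PPAR alpha (-0.62, SE 0.11, adjusted p = 0.0168). Both falls were unstable. Abcd2 passed in 6 of 13 alternatives (adjusted p up to 0.0949), and was -0.40 when all its probes were averaged. Ppargc1a passed in 8 of 13 (adjusted p up to 0.199). At day 5, 3 of the 35 rose and 4 fell, and at day 8, 2 rose and 2 fell. Among all genes 7.36% rose and 9.41% fell at day 5, and 6.26% rose and 8.02% fell at day 8. The same shares of all genes stand beside the counts of the lists below. With any 1 array omitted fewer of all genes passed over both days too, so a lower count in such a fit is not particular to a list.

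Of 15 genes for the steps around omega-oxidation (alcohol and aldehyde dehydrogenases, acyl-CoA synthetases and carriers of the products), 14 were tested, of which 4 rose, 1 fell and 9 did not pass over both days (median 0.16). Some genes are on more than 1 list, and some of these rises are also counted in the list above. With the block 7 rose and 3 fell, and leaving out 1 array gave 3 rises and 1 to 2 falls, the 2 without day 5 replicate 1. Adh7, an alcohol dehydrogenase that accepts long-chain omega-hydroxy fatty acids, rose by 0.96 (SE 0.13, adjusted p = 0.0074). Acsl3, an acyl-CoA synthetase, rose by 0.94 (SE 0.16, adjusted p = 0.0154), a call lost without background subtraction (adjusted p = 0.0527). Crot, the peroxisomal carnitine octanoyltransferase, fell by 0.75 (SE 0.08, adjusted p = 0.00405). At single days 1 rose and 1 fell at day 5, and 0 rose and 1 fell at day 8.

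P450 enzymes need haem and a supply of electrons, and 4 of 11 genes tested for these rose over both days, 1 fell and 6 did not pass (median 0.06). Por, which hands electrons to all microsomal P450 enzymes, had ratios of 0.55, 0.61, 0.84 and 0.60 and rose by 0.65 (SE 0.06, adjusted p = 0.00347). Alas1, the rate-limiting enzyme of haem synthesis in liver, rose by 0.81 (SE 0.08, adjusted p = 0.00384). Fdx1, the mitochondrial ferredoxin that serves steroidogenic P450 enzymes, fell by 0.26 (SE 0.05, adjusted p = 0.0222), a call that held in 5 of 13 alternatives (adjusted p up to 0.838) and was lost without any 1 of the 4 arrays. At day 5, 4 rose and 1 fell, and at day 8, 4 rose and 0 fell.

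Around Cyp17a1, 21 of 26 listed steroid enzymes were tested, of which 3 rose, 7 fell and 11 did not pass over both days (median -0.22). With the block 5 rose and 11 fell, and leaving out 1 array gave 2 to 4 rises and 4 to 5 falls, the 4 falls without day 5 replicate 2 or day 8 replicate 1. Hsd3b1, a 3 beta-hydroxysteroid dehydrogenase, had ratios of 0.72, 0.61, 1.17 and 2.11 and rose by 1.15 (SE 0.16, adjusted p = 0.00876). Hsd17b11 rose by 0.42 (SE 0.08, adjusted p = 0.0228), a call that held in 8 of 13 alternatives (adjusted p up to 0.415). Hsd17b2, which inactivates oestradiol and testosterone, fell by 0.57 (SE 0.05, adjusted p = 0.00278), and Hsd17b12, also an enzyme of fatty acid elongation, fell by 0.53 (SE 0.05, adjusted p = 0.00298). At day 5, 1 rose and 2 fell, and at day 8, 2 rose and 5 fell.

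Among 21 eicosanoid enzymes tested, which supply or share substrates of the Cyp4 enzymes, 5 rose, 7 fell and 9 did not pass over both days (median 0.00). Omission of replicate 1 left 4 falls (that of day 5) or 6 falls (that of day 8), and omission of replicate 2 of either day left 3. Cyp2c23, an arachidonic acid epoxygenase, had ratios of 1.27, 2.42, 1.66 and 1.17 and rose by 1.63 (SE 0.21, adjusted p = 0.007). The phospholipases moved in opposite directions, with Pla2g6 rising by 0.84 (SE 0.05, adjusted p = 0.00163) and Pla2g4a, the cytosolic enzyme that releases arachidonic acid, falling by 1.28 (SE 0.11, adjusted p = 0.00319). Ptgds, a prostaglandin D synthase, fell by 0.99 (SE 0.16, adjusted p = 0.0126). Macrophages express Pla2g4a as well, and the fall of macrophage markers given above runs along with it, but its part was not tested.

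Cyp4a12a belongs to the sex-dependent genes that growth hormone controls in mouse liver, so lists of these were counted beside it. Of 18 male-biased genes tested, 3 rose, 1 fell and 14 did not pass over both days (median -0.03). Of 18 female-biased genes tested, 1 rose, 8 fell and 9 did not pass (median -0.39). Cux2, the target of the siRNA, is on this list, so 1 of the 8 falls is the knockdown itself. Leaving out 1 array at a time gave 1 to 3 rises (1 without day 5 replicate 2) and 0 to 2 falls among the male-biased genes, and 1 to 2 rises and 4 to 10 falls (4 without day 5 replicate 1) among the female-biased genes. With the block 4 male-biased genes rose and 6 fell.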

How the data were processed

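Liver RNA pools were measured on 4 two-colour arrays, 2 per day, in groups taken from the labels. Per the file headers, arrays were read out with Feature Extraction 10.7.1.1. Of the deposited intensity columns, the median spot and local background signals of each channel, as scanned, were analysed. The deposited processed intensities, from which that software had already removed background and dye bias per the file headers, and the authors' value table of log10 ratios served as alternatives. That table equalled the scanner's own log10 ratio within 1e-05 for all 45018 features, with the sign turned on the arrays with the Cux2 siRNA pool in Alexa 555, so its direction is Cux2 siRNA over non-specific siRNA. Its column medians were 0. The scanner's deposited p-value of each log ratio entered no test. Further steps before deposit are not given in the sources used here.

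In R 4.3.3 with limma 3.58.1, background was corrected by normexp (offset 50) and log ratios by loess within arrays, with the 1639 control spots at weight 0 and then removed. Outlier marks removed 99 to 204 spots per array, and 0 spots were saturated. Spike-in controls followed their designed log ratios with slopes of 0.908 to 0.923. Of 41174 probes, 23374 (56.8%) matched a gene by accession and 17800 kept the file's name. Probes well above background in at least 2 of 8 readings were kept (31783), and the brightest stood for its gene, which gave 25113 genes, 14091 with a symbol. Normalized intensity is the level of each channel after these steps and Aquantile scaling between arrays. One lmFit and eBayes fit (2 residual and 2.76 prior degrees of freedom) estimated the log2 ratios of day 5, day 8, their mean and their difference. Precision is limited by the number of arrays. The array design in the file headers names build mm8, while coordinates and promoters are those of the GRCm38.p6 tables.

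The 9 genes and all gene lists were chosen with earlier results of these data known. Named are the 9 genes, Cux2, Ppara, Por, at most the 2 largest rises and 2 largest falls past the threshold in a list over both days (marker and sex-biased lists as counts only, apart from the neutrophil markers), and the 3 named genes nearest to the member with the largest mean in each of Cyp4a, Cyp4f and Cyp17. The alternatives were median centring, the processed signals, the value table, no background subtraction, an offset of 16, other filters on dim probes, other rules for several probes of a gene, the replicate number as a block, and each array left out. Deviations of same-numbered replicates from their day means correlated at r = 0.5 between days over 25113 genes, and same-numbered arrays share the dye orientation by the labels. Values with the block are given where they change a call or move a count by over 1.5 times.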

Additional observations from a re-analysis of the deposited data

How the results depend on the processing

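Of the 9 genes, 3 passed over both days in the main analysis, 1 with median centring (Cyp4a10), 4 with the replicate block, 2 to 3 without 1 array and 3 in each other alternative. Without background subtraction they were not the main 3, as Cyp4a10 was lost (adjusted p = 0.0573) and Cyp4f13 gained (adjusted p = 0.0229). At day 5 it was 0 with median centring and 0 to 2 without 1 array, against 1 in the main analysis. At day 8 it was 0 with median centring, 0 with the scanner's processed signals, 0 with the authors' value table, 1 without background subtraction, 1 with no filter on dim probes and 0 to 2 without 1 array, against 2. Day 8 minus day 5 gave 0 throughout. Median centring left 269 of 7795 calls among all genes over both days, 87 of them rises against 3708, and with it the call of Cyp4v3 was lost (-0.57, adjusted p = 0.46), as was that of Cyp4a12b (0.76, adjusted p = 0.0689). The cause was not tested. With the replicate number, which is also the dye orientation, as a block, 5 of the 9 genes passed at day 5 (3 rises and 2 falls), 3 at day 8 and 4 over both days, while calls among all genes grew to 8227, 7447 and 11247, against 4212, 3588 and 7795. Over both days the block added Cyp4a12a (0.37, adjusted p = 0.00453), and it changed no other call of the 9 genes over both days. Signs turned only in genes that did not pass in the main analysis. Without background subtraction Cyp4f15 at day 5 was 0.0239. Without 1 array Cyp4a14 ran from -0.92 to 0.36 at day 5, from -0.34 to 0.69 at day 8 and from -0.37 to 0.27 over both days. Cyp4f15 ran from -0.0708 to 0.0477 at day 5 and from -0.00751 to 0.0517 over both days, Cyp17a1 from -0.53 to 0.00598 at day 5 and from -0.58 to 0.10 at day 8, and Cyp4a12a from -0.38 to 0.62 at day 8. Where leaving out an array left a day with 1 array, that array was assumed to vary like the others. In each such fit fewer of all genes passed at day 5, at day 8 and over both days than in the main analysis. Alternatives for the gene lists and their named genes were chosen after seeing the data. Median centring lost most of their calls and left 0 macrophage falls, and 13 of 13 alternatives kept Acot1. Electron transfer genes had 4 rises without any 1 array and 0 with median centring, and macrophage falls numbered 7 to 13 without 1 array.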
